A study of Mus musculus with 16 samples.

Results

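The genes described here are the adhesion receptors of the integrin, cadherin and Fat families in immortalized mouse preadipocytes. They were chosen by name alone: symbols starting with Itga or Itgb (without Itgb1bp and Itgbl1), Cdh followed by a number only, and Fat1 to Fat4, Dchs1 and Dchs2. The rule took 57 of the 41325 genes in the tables: 18 integrin alpha subunits, 9 integrin beta subunits, 23 cadherins, 6 genes of the Fat and Dachsous families, and Itgb3bp. Itgb3bp encodes a nuclear protein that binds the tail of integrin beta 3 and is no receptor, and it was kept because its name meets the rule. The cells were wild type, of strain C57Bl6/J, and polyadenylated RNA was sequenced in 4 groups of 4 libraries. These were cells given IL-13, a type 2 immune cytokine, for 16 h beforehand and taken at day 6 of differentiation, untreated cells at day 6, cells given IL-13 for 16 h and taken at day 0, and untreated cells at day 0. The labels do not state how the line was made, or whether libraries of 1 group derive from separate cultures, so p-values here cover the spread among these libraries and that spread may be technical.

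Integrins are pairs of an alpha and a beta subunit that hold the cell to matrix proteins such as fibronectin, vitronectin, collagen and laminin, and that connect to actin inside the cell through talin, kindlins and vinculin. Classical cadherins bind the same cadherin on a neighbouring cell and are held at the membrane by catenins. Fat and Dachsous proteins are very large cadherins that bind each other across cell borders, and in Drosophila they control planar polarity and the Hippo pathway. Preadipocytes sit in a fibronectin-rich matrix and adipocytes in a laminin-rich basement membrane, and a switch of integrin alpha subunits between these states has been described for adipogenesis.

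The libraries held 15253031 to 18112087 counts each, spread over 15447 to 16201 genes. The labelled cell state was visible in its markers: the summed level of 8 adipocyte markers was 23620 to 26550 CPM (counts scaled to library size) in the day 6 libraries against 469 to 546 CPM at day 0, and that of 8 preadipocyte markers was 405 to 514 CPM at day 6 against 1192 to 1346 CPM at day 0. Of these 8 preadipocyte markers, edgeR called 7 lower and 1 higher at day 6 in IL-13 cells, and 5 lower and 1 higher in untreated cells. Zfp423 rose, to 24.7 from 4.73 CPM in IL-13 and to 24.3 from 5.33 CPM in untreated cells. Pdgfra, the largest part of the day 6 sum, had 325 against 370 CPM in IL-13 and 347 against 359 CPM in untreated cells. The sums of both marker lists also differed by treatment at day 0 without overlap. That of preadipocyte markers was 1289 to 1346 CPM in IL-13 against 1192 to 1282 CPM in untreated libraries, with 4 of the 8 called higher by edgeR. That of adipocyte markers was 469 to 491 CPM in IL-13 against 505 to 546 CPM in untreated libraries. Of the 4 adipocyte markers tested, Lpl (265 against 330 CPM) and Cebpa (16.6 against 23.3 CPM) were called lower with IL-13. Pparg was called higher (93.6 against 62.8 CPM) and Fabp4 was not called. Of all tested genes at day 0, 23.7% were called higher and 24.2% lower. The part of these markers in the receptor differences at day 0 was not tested. An index of nuclear RNA, the mean log2 CPM of 21 transcripts that stay in the nucleus or encode splicing factors, was 5.89 to 6.37 in IL-13 libraries against 6.52 to 6.96 in untreated libraries at day 6, and 5.78 to 5.89 in IL-13 libraries against 6.02 to 6.55 in untreated libraries at day 0. At neither day did the groups overlap in this index, so a model cannot fully tell the index and IL-13 treatment apart. At day 0 the SE of Itgav was 0.094 without the index as a model term and 0.181 with it, and that of Cdh23 was 0.278 and 0.49. A call can thus be lost through a larger SE alone. With the index as a model term edgeR called 890 genes at day 0 in place of 5881 and 0 at day 6 in place of 809. Receptor calls lost with it are named below, and counts of partner genes are from the model without it.

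No count was found for 12 of the 57 genes in any of the 16 libraries: the cadherins Cdh4, Cdh6, Cdh7, Cdh8, Cdh9, Cdh10, Cdh12, Cdh16, Cdh20 and Cdh22, and the integrin subunits Itgb2l and Itgb6. A further 16 had some counts but passed the expression filter of no comparison. Among these were Cdh1, the epithelial E-cadherin, with 5, 2, 2 and 2 counts summed over the IL-13 day 6, untreated day 6, IL-13 day 0 and untreated day 0 libraries, and Cdh5, the endothelial VE-cadherin, with 0, 0, 2 and 1 counts in the same order of groups. Itga4, Itgal, Itgam and Itgax, alpha subunits of leukocytes, had no more than 4 counts in any group. The other 29 genes were tested in at least 1 comparison.

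Levels were set side by side between genes in the authors' TPM values, which scale reads to transcript length and library size. Itgb1, the beta subunit shared by most matrix integrins, had the highest TPM of all these receptors in each group, with 269 ± 21.7 TPM in IL-13 day 6, 271 ± 10.2 in untreated day 6, 669 ± 42.9 in IL-13 day 0 and 816 ± 44.7 in untreated day 0 cells (SD, n = 4 each). Among alpha subunits the order differed between the days. Itga5, the fibronectin receptor subunit, held 11.5% ± 1.08 of summed integrin alpha TPM in IL-13 and 11.2% ± 0.848 in untreated cells at day 6, against 62.9% ± 2.38 in IL-13 and 55.3% ± 2.07 in untreated cells at day 0. Itga6, a laminin receptor subunit, held 45.5% ± 3.16 in IL-13 and 44.4% ± 1.68 in untreated cells at day 6, against 4.97% ± 0.107 in IL-13 and 1.04% ± 0.167 in untreated cells at day 0. No library of one day reached the other day's range for either share.

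**Figure D1:**
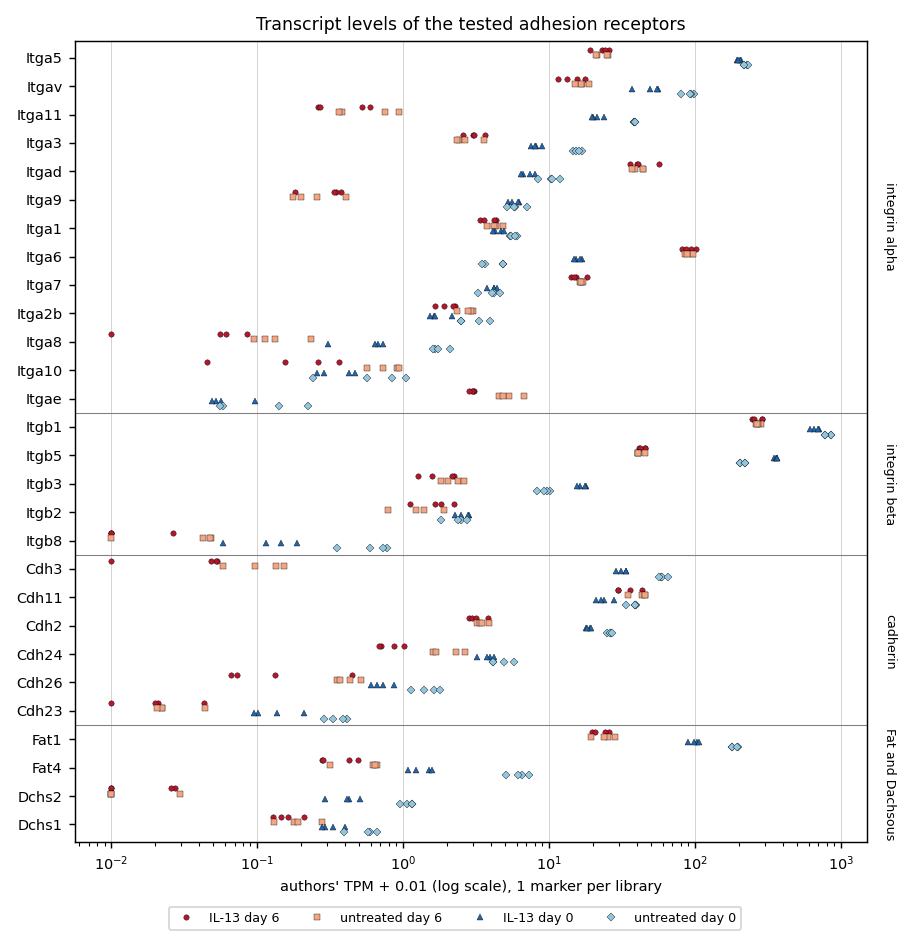
TPM plus 0.01 on a log axis for the 28 tested receptors, 1 marker per library, grouped by family and ordered by level in untreated day 0 cells. Itgb1 sits farthest right in all 4 groups, Itga6 and Itgad lie far right of their day 0 markers at day 6, and Cdh3 reaches at most 0.142 TPM at day 6 against at least 28.7 TPM at day 0.

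Of the beta subunits, Itgb5, the partner of alpha v in a vitronectin receptor, came second to Itgb1 in every group. It took 13.8% ± 1.28 of summed integrin beta TPM in IL-13 and 13.2% ± 0.685 in untreated cells at day 6, and 34.3% ± 1.2 in IL-13 against 20.4% ± 1.67 in untreated cells at day 0. The ratio of Itgav to Itgb5 TPM was 0.335 ± 0.0736 in IL-13 and 0.403 ± 0.0439 in untreated cells at day 6, and 0.137 ± 0.0235 in IL-13 against 0.432 ± 0.0531 in untreated cells at day 0. At day 0 the highest such ratio in an IL-13 library was 0.153 and the lowest in an untreated library was 0.363, so they did not overlap. Cadherin TPM was led by Cdh3 (P-cadherin), Cdh11 (OB-cadherin of mesenchymal cells) and Cdh2 (N-cadherin) at day 0, with shares of 40.0%, 30.1% and 23.6% in IL-13 cells against 45.8%, 28.7% and 20.0% in untreated cells. At day 6 Cdh11 alone held 88.9% ± 1.24 in IL-13 and 87.3% ± 1.9 in untreated cells. Fat1, which ties cell borders to actin, was the leading gene of its family, with 99.2 ± 7.5 TPM in IL-13 against 188 ± 9.59 TPM in untreated cells at day 0.

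**Figure D2:**
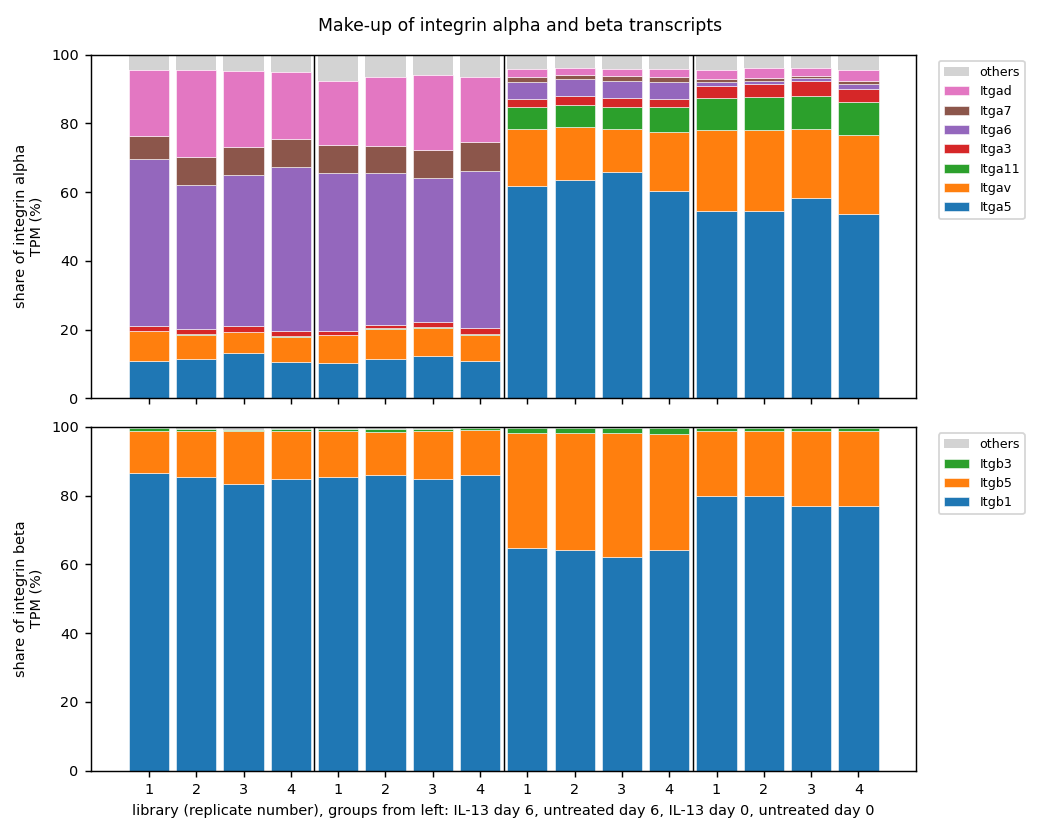
Share of summed integrin alpha TPM (top) and integrin beta TPM (bottom) taken by each subunit, 1 bar per library, 4 bars per group. At day 6 Itga6 and Itgad fill most of the alpha bars, at day 0 Itga5 and Itgav do, and the Itgb5 segment is 33.3% to 36.0% in IL-13 day 0 libraries against 18.9% to 21.9% in untreated day 0 libraries.

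Promoter sequence was looked up for the receptors in RefSeq (GRCm38.p6), where 38 of the 57 had an entry. Because IL-13 acts through Stat6, the 250 bases upstream of each start were searched for the Stat motif, the letters TTC and GAA with any 4 bases between, which reads the same on both strands. It was present for 3 of the 38, Cdh7, Itga3 and Itgax, and for 6.76% of the 27025 genes with an entry. Of the 12 receptors with an entry that were called in the IL-13 comparison at day 0, only Itga3 held it. The sequences shown are the motif of Itga3 in 30 bases (chr11:95076788-95076817, minus strand, with the motif in capitals starting 93 bases before the RefSeq start and lying across the start of Itga3 in the annotation that gives the gene coordinates below), and the upstream 250 bases of Itgb5 (chr16:33829415-33829664, plus strand) and Fat4 (chr3:38886690-38886939, plus strand), a receptor that rose and one that fell with IL-13, neither of which holds the motif. Such a match is a description of letters in this window only.
Itga3: ccttttctctTTCCCCGGAAggaaagcgga
Itgb5: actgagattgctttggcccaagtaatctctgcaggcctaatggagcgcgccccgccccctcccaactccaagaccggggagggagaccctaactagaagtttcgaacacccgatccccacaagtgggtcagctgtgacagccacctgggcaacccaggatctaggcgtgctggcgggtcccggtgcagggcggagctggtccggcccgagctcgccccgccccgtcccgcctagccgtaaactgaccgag
Fat4: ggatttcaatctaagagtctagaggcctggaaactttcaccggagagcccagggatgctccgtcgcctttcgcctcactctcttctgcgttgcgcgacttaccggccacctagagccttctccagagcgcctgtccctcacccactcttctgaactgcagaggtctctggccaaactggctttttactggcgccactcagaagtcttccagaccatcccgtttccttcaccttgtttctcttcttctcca

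The first comparison asked what IL-13 had done to the receptors by day 0, before differentiation. In these data 3 integrin subunits rose, Itga6, Itgb3 and Itgb5, and 15 receptors fell, from every family: 6 alpha subunits, Itgb8, 5 cadherins and 3 Fat and Dachsous genes. Itga6 rose most, 4.34-fold, and Itgb8 and Fat4 fell most, 4.45-fold and 4.08-fold. Of the 57 genes 28 were tested and 18 called, 64.3% of those tested, where 47.9% of all 12274 tested genes were called, 23.7% higher and 24.2% lower. Of the 15 that fell, Itgb8, Cdh23 and Cdh26 passed the expression filter only through the untreated libraries, so they had to be lower in IL-13 cells, and of the 24 receptors that reached it in both groups 3 rose and 12 fell. In bulk RNA such as this, fewer cells of a type and less RNA per cell cannot be told apart.

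Itga6 (chr2:71745616-71858416, plus strand) had 46.9, 44.6, 44.4 and 44.3 CPM in the IL-13 libraries, against 11.5, 9.06, 9.1 and 11.3 CPM in the untreated ones. All IL-13 libraries lay well above all untreated ones. The log2 fold change was 2.12 (SE 0.085), with an adjusted p of 3.16e-11 by edgeR's quasi-likelihood test with Benjamini-Hochberg adjustment, which also gave the adjusted p-values that follow. Itgb3 (chr11:104608000-104670476, plus strand), the beta subunit that pairs with alpha v and with platelet alpha IIb, had 32.6, 30.8, 30.4 and 31.0 CPM in IL-13 cells against 15.6, 15.9, 14.0 and 14.1 CPM in untreated cells. Every IL-13 library stood well above every untreated one, and the log2 fold change was 1.05 (SE 0.070, adjusted p = 1.45e-08). Itgb5 (chr16:33829665-33949338, plus strand) had 399, 398, 419 and 389 CPM in IL-13 cells against 188, 201, 226 and 203 CPM in untreated cells. Again no library overlapped, and the log2 fold change was 0.96 (SE 0.057, adjusted p = 3.72e-09). Of 50-base stretches of these transcripts, 5.31% of Itga6 and 7.25% of Itgb5 occur also in other annotated genes, and reads there are uncertain.

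The alpha v subunit, with which both of these beta subunits pair, moved the other way. Itgav (chr2:83724397-83806916, plus strand) had 185, 169, 131 and 178 CPM in IL-13 cells, against 276, 278, 248 and 258 CPM in untreated cells. Groups did not overlap, and the log2 fold change was -0.69 (SE 0.094, adjusted p = 1.12e-04). With the index of nuclear RNA as a model term it was -0.50 and no longer called (adjusted p = 0.185 by edgeR), and with offsets for transcript length and GC content it was -0.45 and still called. The beta 8 subunit, which pairs with alpha v in the activation of latent TGF-beta, was scarce: Itgb8 (chr12:119158022-119238802, minus strand) had 0.359, 0.633, 0.178 and 0.447 CPM in IL-13 cells against 2.2, 1.79, 1.09 and 2.04 CPM in untreated cells. The groups lay apart at these low levels, at -2.15 on the log2 scale (SE 0.335, adjusted p = 1.29e-04), and with the index of nuclear RNA as a model term it was -1.15 and not called (edgeR adjusted p = 0.255).

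The beta 1 subunit itself did not pass the test, at -0.09 on the log2 scale (SE 0.061), nor did Itga5, at 0.04 (SE 0.058). The result for Itgb1 depended on scaling. Its CPM groups overlapped, but with scaling by total count edgeR called it lower. In TPM its groups lay apart, at 615 to 710 in IL-13 against 773 to 859 in untreated libraries. Of the alpha partners of Itgb1, Itga6 rose as above and Itga1, Itga7, Itga9 and Itga10 did not pass, while Itga8, Itga3 and Itga11 fell. Itga8 (chr2:12106632-12301922, minus strand), a receptor subunit for nephronectin, had 1.62, 0.697, 1.6 and 1.41 CPM in IL-13 cells against 4.05, 3.39, 3.4 and 3.27 CPM in untreated cells, and its log2 fold change was -1.41 (SE 0.211, adjusted p = 9.35e-05 by edgeR). Itga3 (chr11:95044474-95076801, minus strand), a laminin receptor subunit, had 14.3, 16.3, 14.2 and 13.6 CPM in IL-13 cells against 21.7, 24.1, 27.8 and 23.4 CPM in untreated cells, and was lower by a log2 value of -0.75 (SE 0.086, adjusted p = 7.4e-06). Itga11 (chr9:62677826-62783982, plus strand), a collagen receptor subunit of mesenchymal cells, had 33.7, 33.2, 33.1 and 36.5 CPM in IL-13 cells against 52.0, 54.0, 56.6 and 51.1 CPM in untreated cells, and stood at -0.66 on the log2 scale (SE 0.058, adjusted p = 3.82e-07). In all of these genes each IL-13 library lay below each untreated one.

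Integrin subunits known from blood cells were low or read with a limit. Itga2b (chr11:102453297-102470122, minus strand), alpha IIb of the platelet fibrinogen receptor, had 3.6, 2.85, 2.73 and 2.68 CPM in IL-13 cells against 4.71, 3.76, 3.92 and 5.51 CPM in untreated cells. The highest IL-13 library fell just short of the lowest untreated one, and the log2 fold change of -0.61 (SE 0.164, adjusted p = 0.00657 by edgeR) was -0.17 with the index of nuclear RNA as a model term and -0.37 without untreated libraries 1 and 4, neither of them called. Summed over 4 platelet markers the level was 1.9 to 3.18 CPM in IL-13 and 1.34 to 2.71 CPM in untreated cells at day 0, nearly all of it Gp1bb, with Gp9 at 0. Itgad, the alpha D subunit of a leukocyte integrin, stood at -0.33 on the log2 scale (SE 0.097, edgeR adjusted p = 0.0107) with overlapping groups, and that call was lost both with the covariate, at -0.10, and without the 2 untreated libraries richest in nuclear RNA, at -0.26. Itga1, Itga7, Itga9, Itga10 and Itgb2 did not pass the test, with log2 fold changes between -0.71 for Itga10 and 0.32 for Itgb2. Itga7 came close, at 0.24 (SE 0.095, adjusted p = 0.052 by edgeR), with groups that did not overlap. It was called higher with RLE size factors, another scaling, and with a replicate block. The same held without untreated library 4 and without the 2 untreated libraries richest in nuclear RNA.

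Among the cadherins all 5 calls were falls, but for Cdh23 and Cdh26 the expression filter had fixed that direction. Cdh3 (chr8:106510891-106557297, plus strand) had 41.8, 47.3, 41.6 and 44.0 CPM in IL-13 cells, against 67.6, 72.1, 72.1 and 74.0 CPM in untreated cells. No libraries overlapped, and the log2 fold change was -0.72 (SE 0.057, adjusted p = 1.1e-07 by edgeR). Cdh11, at -0.46 (SE 0.063), and Cdh2, at -0.29 (SE 0.055), fell less, and Cdh11 was at -0.28 with the length and GC offsets, still called. Cdh23 (chr10:60302748-60696490, minus strand), a part of the tip links of inner ear hair cells, had 0.479, 1.08, 0.475 and 0.639 CPM in IL-13 cells against 1.79, 1.29, 1.84 and 1.39 CPM in untreated cells, and Cdh26 (chr2:178430531-178487366, plus strand) had 0.599, 0.697, 0.594 and 0.767 CPM in IL-13 cells against 1.28, 1.48, 0.979 and 1.07 CPM in untreated cells. Both pairs of groups lay apart, with log2 fold changes of -1.26 (SE 0.278, adjusted p = 0.00187 by edgeR) for Cdh23 and -0.86 (SE 0.249, adjusted p = 0.0103) for Cdh26. At about 1 CPM both calls were lost with the nuclear covariate, at -1.31 for Cdh23 (edgeR adjusted p = 0.135) and -0.62 for Cdh26 (adjusted p = 0.587). That of Cdh26 was also lost in DESeq2, at -0.86 with an adjusted p of 0.0561, and without the 2 untreated libraries richest in nuclear RNA, at -0.88 (edgeR adjusted p = 0.0596). Cdh24 did not pass, at -0.12 (SE 0.138).

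The Fat and Dachsous genes fell where they were called. Fat4 (chr3:38886940-39011985, plus strand), a receptor for Dachsous 1, had 7.91, 6.65, 6.11 and 8.05 CPM in IL-13 cells, against 29.5, 29.1, 25.2 and 32.3 CPM in untreated cells. The groups lay far apart, and the log2 fold change was -2.03 (SE 0.106, adjusted p = 8.04e-10 by edgeR). Fat1 (chr8:44935447-45052257, plus strand) had 494, 492, 461 and 500.1 CPM in IL-13 cells against 811, 777, 817 and 781 CPM in untreated cells, also without overlap. Its log2 fold change was -0.72 (SE 0.055, adjusted p = 7.04e-08), and -0.42 with the length and GC offsets, still called. Dchs2 (chr3:83127948-83357209, plus strand), a Dachsous cadherin, had 1.38, 1.39, 1.01 and 1.6 CPM in IL-13 cells against 2.97, 2.83, 3.57 and 3.16 CPM in untreated cells, and its log2 fold change was -1.24 (SE 0.182, adjusted p = 8.28e-05). Dchs1, the ligand of Fat4, did not pass, at -0.58 (SE 0.235, adjusted p = 0.0537).

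**Figure D3:**
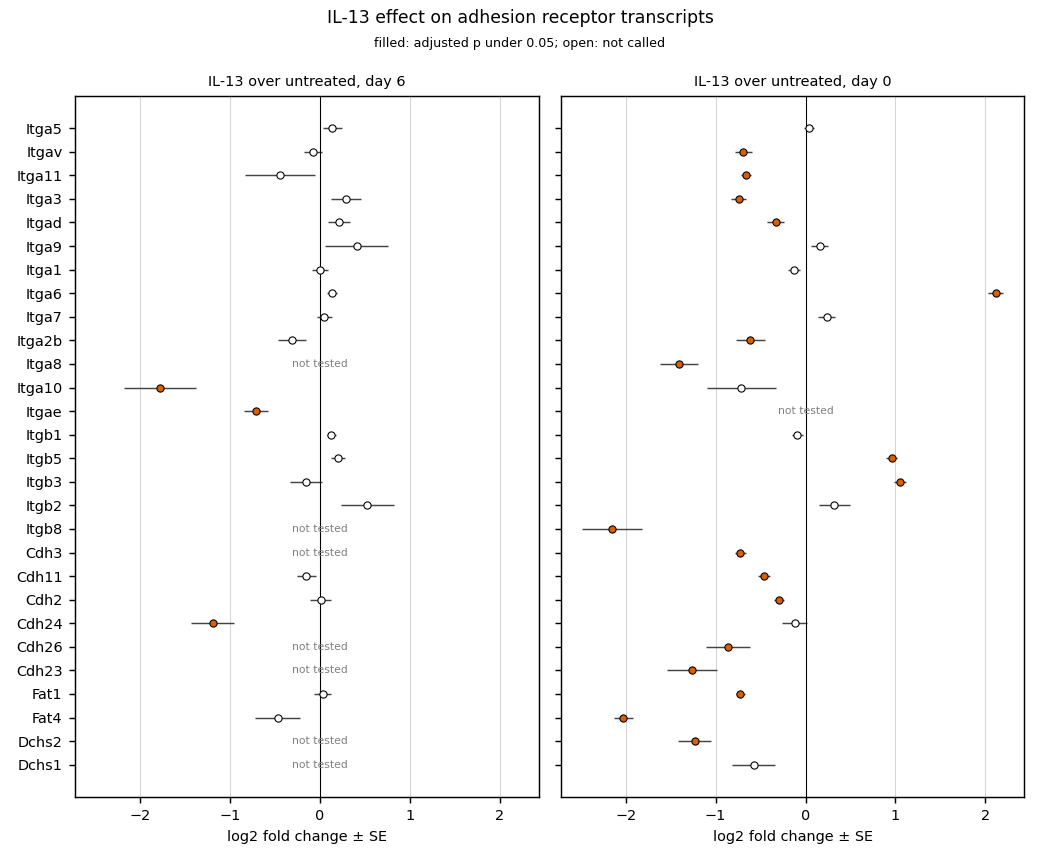
Log2 fold change of IL-13 over untreated cells with its SE for each tested receptor, day 6 on the left and day 0 on the right; filled points have an adjusted p under 0.05. At day 0 Itga6, Itgb3 and Itgb5 lie right of 0 and 15 filled points lie left of it; at day 6 the filled points are Itga10, Cdh24 and Itgae, and Itga6 lies at 0.13.

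At day 6 the comparison asked whether differentiated cells differed by their earlier IL-13 treatment. Of 22 tested receptors 3 were called, 13.6% of those tested, all lower in IL-13 cells: Itga10, Cdh24 and Itgae. Of all 12352 tested genes 6.55% were called, 2.21% higher and 4.34% lower. Itga10 passed the expression filter only through the untreated libraries, so it had to be lower in IL-13 cells. None of these 3 calls was left without untreated library 1, without untreated library 2, without IL-13 library 2, or with the index of nuclear RNA as a model term, and edgeR called 0 genes of the whole table with that covariate, where 960 had an unadjusted p under 0.05. Without 1 of those 3 libraries the log2 fold changes were -1.06 to -1.30 for Cdh24, -1.65 to -1.72 for Itga10 and -0.59 to -0.72 for Itgae, with edgeR adjusted p-values of 0.0535 to 0.107. Itga10 was also not called without IL-13 library 3, at -1.48 (edgeR adjusted p = 0.0551), nor Cdh24 without IL-13 library 4, at -1.12 (adjusted p = 0.0548). All 3 calls were lost too without the 2 untreated libraries richest in nuclear RNA, at -1.19 for Cdh24, -1.55 for Itga10 and -0.56 for Itgae.

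Itgae (chr11:73090583-73147446, plus strand), the alpha E subunit that binds E-cadherin as a partner of beta 7, had 4.58, 4.53, 4.95 and 4.49 CPM in IL-13 cells, against 9.46, 7.49, 6.6 and 7.08 CPM in untreated cells. No library overlapped, and the log2 fold change was -0.71 (SE 0.134, adjusted p = 0.0169 by edgeR). Itgb7, its partner, had 5 and 9 counts in IL-13 and untreated cells at day 6, and Cdh1, its ligand, 5 and 2. Cdh24 (chr14:54631231-54641364, minus strand), a classical type II cadherin, had 0.99, 0.806, 1.27 and 0.816 CPM in IL-13 cells against 2.83, 1.72, 1.85 and 2.55 CPM in untreated cells, and its log2 fold change was -1.19 (SE 0.242, adjusted p = 0.0216). Itga10 (chr3:96645584-96664519, plus strand), a collagen receptor subunit of cartilage, had 0.433, 0.248, 0.0669 and 0.641 CPM in IL-13 cells against 1.42, 1.49, 1.19 and 0.928 CPM in untreated cells, and its log2 fold change was -1.78 (SE 0.402, adjusted p = 0.0303). The groups of both genes lay apart near 1 CPM. With the covariate the value of Cdh24 was -1.12, that of Itga10 -0.62 and that of Itgae -0.44. Of Itga10, 30.6% of the 50-base stretches also occur in the overlapping gene Gm42957, which had 7 and 1 counts in IL-13 and untreated cells at day 6.

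The subunits that rose at day 0 did not pass the test at day 6. Itga6 had 304, 282, 267 and 271 CPM in IL-13 cells against 262, 272, 247 and 255 CPM in untreated cells, with overlapping groups, at 0.13 on the log2 scale (SE 0.056, adjusted p = 0.16 by edgeR). Itgb3 stood at -0.16 (SE 0.178) and Itgb5 at 0.20 (SE 0.077, adjusted p = 0.117). With offsets for transcript length and GC content edgeR did call Itga6 and Itgb5 higher at day 6, and Itgb5 was also called higher without IL-13 library 1.

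Whether the IL-13 effect differed between the days was tested directly, as the effect at day 6 minus that at day 0, on the log2 scale. It differed for 8 of 29 tested receptors, where 8.06% of 13157 genes were called, 3.12% higher and 4.95% lower. The difference was negative for Itga6 at -2.02 (SE 0.099, adjusted p = 9.15e-12 by edgeR), Itgb3 at -1.24 (SE 0.173, adjusted p = 4.76e-05), Cdh24 at -1.10 (SE 0.267, adjusted p = 0.0113) and Itgb5 at -0.78 (SE 0.094, adjusted p = 7.3e-06). It was positive for Fat4 at 1.53 (SE 0.265, adjusted p = 5.52e-04), Itga3 at 1.01 (SE 0.185, adjusted p = 9.73e-04), Fat1 at 0.73 (SE 0.110, adjusted p = 1.17e-04) and Itgav at 0.59 (SE 0.146, adjusted p = 0.015). Except for Cdh24, whose fall was called at day 6, these are receptors with a call at day 0 and none at day 6 in the model without offsets. With the length and GC offsets Itga6, Itgb5 and Fat1 were called higher at day 6. Itgav was not called without the 2 untreated libraries per day richest in nuclear RNA, at 0.66 (edgeR adjusted p = 0.0814).

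At day 6 the levels behind these differences lay close together. Fat1 had 133, 125, 112 and 112 CPM in IL-13 cells against 136, 124, 120 and 97.1 CPM in untreated cells, and Itgav had 63.0, 55.2, 45.1 and 49.5 CPM in IL-13 cells against 55.0, 62.9, 56.7 and 51.8 CPM in untreated cells. Itga3 had 5.63, 6.82, 6.35 and 5.07 CPM in IL-13 cells against 4.18, 4.1, 4.82 and 6.5 CPM in untreated cells. All of these groups overlapped. Fat4 had 2.72, 2.36, 1.67 and 1.63 CPM in IL-13 cells against 3.41, 3.27, 3.43 and 1.68 CPM in untreated cells, where untreated library 4 stood with the IL-13 libraries and the log2 fold change was -0.47 (SE 0.252).

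**Figure D4:**
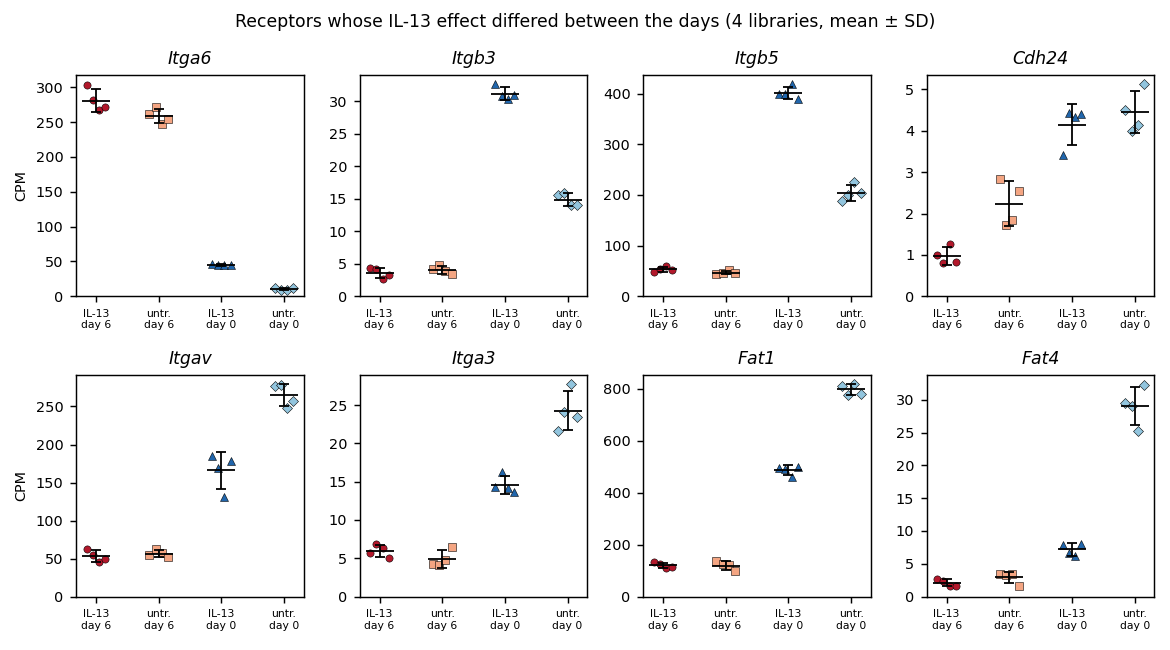
CPM in each library of the 8 receptors whose IL-13 effect differed between the days, with mean and SD per group (n = 4), on axes starting at 0. Itga6, Itgb3 and Itgb5 are higher in IL-13 than in untreated libraries at day 0 and Itgav, Itga3, Fat1 and Fat4 lower, while at day 6 the groups of all these 7 overlap; Cdh24 lies apart at day 6 only.

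Day 6 was set against day 0 to describe differentiation, within IL-13 pre-treated and within untreated cells. None of the 4 groups is of undifferentiated cells at day 6, and each day has its own table. Differentiation therefore cannot be told apart from time in culture or from handling that differed between the days. In IL-13 cells 25 of 29 tested receptors were called, 19 lower and 6 higher at day 6, where 80.8% of all 13157 tested genes were called, 40.6% higher and 40.3% lower. In untreated cells 27 of 29 were called, 21 lower and 6 higher, where 80.5% of the genes were called, 41.5% higher and 39% lower. Some directions were fixed by the expression filter. In untreated cells Cdh3, Cdh23, Cdh26, Dchs1, Dchs2, Itga8, Itga9, Itga11 and Itgb8 passed it only through day 0 and Itgae only through day 6, and in IL-13 cells none of these 10 reached it in all libraries of both days. Of the 18 receptors that did so in each treatment, 10 fell and 5 rose in IL-13 cells, and 12 fell and 5 rose in untreated cells. The higher genes were the same in both: Itga6, Itga7, Itgad, Itgae, Cdh11 and Itgb3bp.

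Itga5, Itga9 and Itga11, alpha subunits of matrix receptors, fell. Itga5 (chr15:103344286-103366763, minus strand) had 37.5, 42.1, 43.4 and 32.9 CPM in IL-13 cells at day 6, against 315, 323, 318 and 290.1 CPM at day 0. In untreated cells it had 32.2, 38.6, 39.2 and 32.9 CPM at day 6 against 295, 297, 331 and 276 CPM at day 0. Day 6 lay far below day 0 in both, and the log2 fold changes were -2.999 (SE 0.087, adjusted p = 9.47e-18 by edgeR) in IL-13 cells and -3.07 (SE 0.087, adjusted p = 7.01e-18) in untreated cells. Itga9 (chr9:118606690-118901003, plus strand), a receptor subunit for tenascin C and osteopontin, had 0.433, 0.93, 0.936 and 0.875 CPM in IL-13 cells at day 6 against 14.6, 12.9, 14.1 and 14.0 CPM at day 0. Its untreated libraries had 0.579, 0.951, 0.462 and 0.406 CPM at day 6 against 14.1, 10.97, 12.9 and 11.4 CPM at day 0. The log2 fold changes were -4.12 (SE 0.179) in IL-13 cells and -4.34 (SE 0.189) in untreated cells, both called, with no overlap between the days. Itga11 had 0.866, 0.993, 0.468 and 0.466 CPM in IL-13 cells and 0.579, 1.19, 1.52 and 0.58 CPM in untreated cells at day 6, far under its day 0 values above, and its log2 fold changes were -5.59 (SE 0.171) in IL-13 and -5.79 (SE 0.158) in untreated cells. The collagen receptor subunit Itga1 stood at -0.10 (SE 0.078, not called) in IL-13 cells and -0.21 (SE 0.077, adjusted p = 0.0194 by edgeR) in untreated cells, with overlapping groups in both, and Itga10 was called in neither treatment.

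Every called beta subunit was lower at day 6, a direction that the expression filter had fixed for Itgb8 in untreated cells. Itgb1 had log2 fold changes of -1.19 (SE 0.057) in IL-13 cells and -1.38 (SE 0.058) in untreated cells. Itgb5 had 48.4, 53.3, 59.0 and 52.1 CPM in IL-13 cells and 44.0, 45.2, 51.1 and 46.1 CPM in untreated cells at day 6, and Itgb3 had 4.33, 4.22, 2.67 and 3.21 CPM in IL-13 cells and 4.25, 4.75, 3.83 and 3.42 CPM in untreated cells. Both were several-fold below their day 0 values in each treatment, with log2 fold changes of -2.91 (SE 0.070) in IL-13 and -2.13 (SE 0.069) in untreated cells for Itgb5, and of -3.11 (SE 0.119) in IL-13 and -1.87 (SE 0.120) in untreated cells for Itgb3. Itgb8 was left with 1 count in IL-13 cells at day 6 against 26 at day 0, a ratio of 0.0388 with an exact 95% counting interval of 9.47e-04 to 0.236, and its log2 fold change in untreated cells was -4.16 (SE 0.466). Itgb2, the common beta subunit of leukocyte integrins, was called in untreated cells at -0.65 (SE 0.249, adjusted p = 0.0229 by edgeR), with overlapping groups, and not in IL-13 cells; its call was lost without untreated day 0 library 3, without untreated day 6 library 4 and with the nuclear covariate.

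Itga6 rose most among the abundant receptors. Its day 6 values of 267 to 304 CPM in IL-13 and 247 to 272 CPM in untreated cells stood against 44.3 to 46.9 CPM in IL-13 and 9.06 to 11.5 CPM in untreated cells at day 0, and the log2 fold changes were 2.64 (SE 0.068, adjusted p = 1.35e-18 by edgeR) in IL-13 and 4.65 (SE 0.078, adjusted p = 1.55e-21) in untreated cells. Itga7, a laminin receptor subunit best known from muscle, rose by 2.04 (SE 0.082) in IL-13 and 2.26 (SE 0.082) in untreated cells on the log2 scale. Itgae was nearly absent at day 0 and had a mean of 4.64 CPM in IL-13 and 7.66 CPM in untreated cells at day 6, against 0.0775 CPM in IL-13 and 0.136 CPM in untreated cells at day 0. Its log2 fold changes were 5.78 (SE 0.303) in IL-13 and 5.71 (SE 0.250) in untreated cells, both called. Itgb3bp rose by 0.69 (SE 0.099) in IL-13 and 0.78 (SE 0.10) in untreated cells, and 8.59% of its exon bases overlap Pgm1 on the other strand, which had 1205 and 1289 counts in IL-13 and untreated cells at day 6 and 2866 and 2863 at day 0.

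Itgad (chr7:128154376-128223816, plus strand) averaged 66.7 CPM in IL-13 and 58.1 CPM in untreated cells at day 6, against 10.1 CPM in IL-13 and 12.6 CPM in untreated cells at day 0, and its log2 fold changes were 2.73 (SE 0.120) in IL-13 and 2.21 (SE 0.116) in untreated cells, both called. The nearest of the other integrin genes on its chromosome, Itgax 3.7 kb away and Itgam a further 11.1 kb, had at most 4 counts in any group. Of 50-base stretches of Itgad 13.5% occur also in Itgax, Gm17831 or Slc25a51, and its exons overlap Cox6a2 on the other strand, which had 1003 and 716 counts in IL-13 and untreated cells at day 6 and 52 and 28 at day 0. Whether counting used the strand is not given in the sources used here, so reads of Itgad and Cox6a2 in the shared exons cannot be told apart. Summed over 8 leukocyte markers the level was 2.16 to 3.29 CPM in IL-13 and 1.54 to 2.55 CPM in untreated cells at day 6, against 6.47 to 8.67 CPM in IL-13 and 4.6 to 6.4 CPM in untreated cells at day 0. Ptprc was at 0 in all day 6 libraries and Adgre1 in all 16. Of the 3 tested, Csf1r and Lyz2 were called lower at day 6 in each treatment. Cd68, which led the day 6 sum, was called higher in IL-13 cells, at 2.52 against 1.415 CPM. In untreated cells Cd68 had 2.02 against 1.465 CPM and was not called. The part of these markers in the Itgad result was not tested.

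Among the cadherins, and among all tested receptors, Cdh3 had the largest fitted fall. It kept 3 counts in the IL-13 libraries at day 6 against 2833 at day 0, a ratio of 0.00107 with a counting interval of 2.2e-04 to 0.00313, and in untreated cells it had 0.0644, 0.119, 0.198 and 0.174 CPM at day 6, at -8.93 on the log2 scale (SE 0.140, adjusted p = 6.84e-22 by edgeR). Dchs2 had 2 counts against 87 in IL-13 cells, a ratio of 0.0232 with a counting interval of 0.00277 to 0.0863, and 1 count against 225 in untreated cells, a ratio of 0.00493 with a counting interval of 1.24e-04 to 0.0277. These intervals cover counting error only. Cdh2 fell by 2.43 in IL-13 and 2.71 in untreated cells on the log2 scale, and Cdh11 rose by 0.66 (SE 0.096) in IL-13 and by 0.38 (SE 0.095) in untreated cells. That rise of Cdh11 in untreated cells was lost as a call with the nuclear covariate, at 0.27, and without the 2 untreated libraries per day richest in nuclear RNA, at 0.31. Cdh23 and Itga8 were at or under 0.53 CPM in every day 6 library, and their log2 fold changes lay between -2.98 for Cdh23 in IL-13 cells and -3.99 for Cdh23 in untreated cells.

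Fat1 and Fat4 fell as well. The log2 fold changes of Fat1 were -2.02 (SE 0.081) in IL-13 and -2.74 (SE 0.083) in untreated cells, and those of Fat4 were -1.77 (SE 0.191) in IL-13 and -3.31 (SE 0.165) in untreated cells, all called by edgeR. Itga3 and Itgav were lower at day 6 too, with log2 fold changes of -1.29 (SE 0.130) and -1.64 (SE 0.105) in IL-13 cells and of -2.30 (SE 0.129) and -2.23 (SE 0.106) in untreated cells. For Itga3 the value in IL-13 cells was -0.80 with the length and GC offsets. Dchs1 fell by 0.93 (SE 0.291) in IL-13 cells, a call lost with those offsets at -0.38, and by 1.36 (SE 0.267) in untreated cells, where the offsets gave -0.81. Cdh24 fell by 2.09 (SE 0.198) in IL-13 and 0.99 (SE 0.170) in untreated cells, the value in untreated cells being -0.57 with the offsets.

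**Figure D5:**
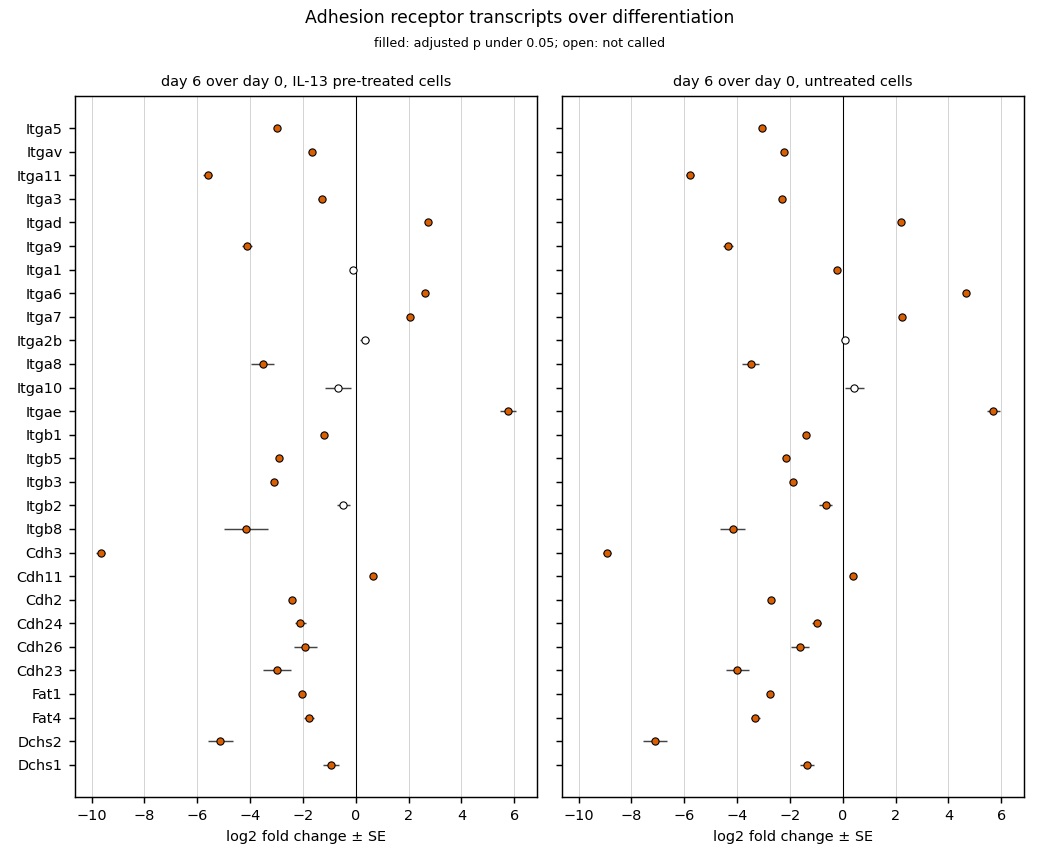
Log2 fold change of day 6 over day 0 with its SE for each tested receptor, IL-13 pre-treated cells on the left and untreated cells on the right; filled points have an adjusted p under 0.05. Cdh3 lies farthest left in both at -9.66 and -8.93, and Itgae lies farthest right at 5.78 and 5.71.

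Partner genes of the receptors were counted from lists chosen beside them. Of the integrin adaptors, which couple the receptors to actin, 5 of 25 tested rose and 6 fell with IL-13 at day 0, with a list median of 0.01 on the log2 scale, beside -0.01 over all tested genes, of which 23.7% rose and 24.2% fell. Vcl, vinculin, fell by 0.65 (SE 0.054, adjusted p = 2.31e-07 by edgeR), and the kindlin gene Fermt2 by 0.36 (SE 0.051). At day 6 none of 27 was called, the smallest adjusted p being 0.079 for Ptk2, the focal adhesion kinase, by edgeR. Over differentiation 20 of 27 fell and 5 rose in each treatment, with medians of -0.94 in IL-13 and -0.84 in untreated cells, beside 0.00 and 0.04 over all tested genes, of which 40.3% fell and 40.6% rose in IL-13 cells and 39% fell and 41.5% rose in untreated cells. Tns3, Actn1 and Flna, for a tensin, alpha-actinin and filamin, were about 3 log2 units lower in each. The IL-13 effect differed between the days for Vcl, at 0.60 (SE 0.075).

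Integrin ligands moved in both directions with IL-13 at day 0, where 8 of 20 tested rose and 5 fell, beside 23.7% and 24.2% of all tested genes. Fbn1, fibrillin 1, had 1321 ± 32.7 CPM in IL-13 against 532 ± 36.3 CPM in untreated cells, and Postn, periostin, had 5537 ± 678 CPM in IL-13 against 2337 ± 112 CPM in untreated cells (SD, n = 4 each). Both are bound by alpha v integrins, and their log2 fold changes were 1.30 (SE 0.061, adjusted p = 2.16e-10 by edgeR) and 1.23 (SE 0.090, adjusted p = 4.2e-08). Spp1, osteopontin, fell by 0.56 (SE 0.054), and the list median was 0.10. Of 22 tested at day 6, Lama4 was higher, at 0.32 (SE 0.067), and Lama2 lower, at -0.56 (SE 0.143), beside 2.21% of all tested genes higher and 4.34% lower. Neither was called with the nuclear covariate, where edgeR called no gene. Over differentiation 15 fell and 5 rose in IL-13 cells, where 40.3% of all tested genes fell and 40.6% rose. In untreated cells 16 fell and 6 rose, where 39% of all tested genes fell and 41.5% rose. Tnc, tenascin C, had 3.05 ± 0.54 CPM at day 6 against 412 ± 12.2 CPM at day 0 in untreated cells, while Lama4, a laminin chain of basement membranes, had 160 ± 4.19 CPM at day 6 against 0.0134 CPM at day 0. The IL-13 effect was lower at day 6 than at day 0 for Postn, at -1.30, and for Fbn1, at -1.09.

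Of 10 tested catenins and nectins, Afdn, the nectin-bound afadin, rose by 0.38 with IL-13 at day 0 and 4 fell, among them Ctnnd1 by 0.22, Ctnnb1 (beta-catenin) by 0.20 and Nectin1 by 0.28, and at day 6 none was called by edgeR (smallest adjusted p = 0.0753). The list median at day 0 was -0.17, beside -0.01 over all tested genes, of which 23.7% rose and 24.2% fell. Over differentiation 8 of 10 fell and 2 rose in each treatment, Nectin2 and Ctnna1 (alpha-catenin) being the higher ones. Of all tested genes 40.3% fell and 40.6% rose in IL-13 cells, and 39% fell and 41.5% rose in untreated cells. In the Fat and Hippo list 12 of 21 fell and 3 rose with IL-13 at day 0, with a median of -0.25, beside -0.01 over all tested genes, of which 24.2% fell and 23.7% rose. Ctgf, Ankrd1 and Amotl2, targets of the Hippo effector Yap, fell on the log2 scale by 1.26 (SE 0.080), 0.81 (SE 0.073) and 0.68 (SE 0.064), while Tead1, the DNA-binding partner of Yap, fell by 0.54 (SE 0.064). At day 6 none of 19 was called (smallest edgeR adjusted p = 0.0528, for Stk3), and over differentiation 12 of 21 fell in each treatment while 7 rose in IL-13 and 5 in untreated cells, where 40.3% and 39% of all tested genes fell and 40.6% and 41.5% rose in IL-13 and untreated cells. The day difference was called for Amotl2 at 0.70 and Lix1l at 0.27.

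Markers of other cell types gave these levels. The summed level of 6 endothelial markers was 0.75 to 1.25 CPM at day 6 and 3.37 to 4.07 CPM at day 0 with Tie1 at 0 throughout, that of 5 epithelial markers was at most 0.247 CPM, and that of 4 Schwann cell markers was 1.01 to 3.28 CPM. The 3 endothelial markers tested, Kdr, Tek and Vwf, were called lower at day 6 in each treatment. Pecam1, which was not tested, went the other way. It had 0.477 CPM at day 6 against 0.105 CPM at day 0 in IL-13 cells, and 0.414 against 0.241 CPM in untreated cells. The sum of 6 muscle and pericyte markers was 57.7 to 71.5 CPM in IL-13 and 58.7 to 61.6 CPM in untreated cells at day 6, against 15.1 to 17.3 CPM in IL-13 and 16.7 to 18.0 CPM in untreated cells at day 0, with Myod1 at 0 and Mcam, Des and Cspg4 leading at day 6. Of the 5 tested, these 3 were called higher at day 6 and 2 lower in each treatment. Myh11 was lower, at 2.33 against 4.52 CPM in IL-13 and 2.29 against 5.23 CPM in untreated cells. Rgs5 was lower too, at 0.0929 against 1.785 CPM in IL-13 and 0.0777 against 1.51 CPM in untreated cells. The sum thus moved with Itga7 over differentiation while part of the list went the other way, and the part of these markers in that result was not tested.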

How the data were processed

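Polyadenylated RNA of 16 libraries was analysed from the total read counts per gene that the authors deposited in 2 tables, 1 per day, which per the file headers are not normalized, and levels between genes were taken from the authors' deposited TPM. Per the submitters' processing notes the build was mm10; the sources used here do not give the aligner, counter, annotation or strand setting. A further 32 per-sample columns of the tables were not used. Gene identifiers were matched to GENCODE for GRCm38: 41297 of 41325 were found, and all 57 genes had the same coordinates. Counts of all genes were fitted with edgeR 4.0.16 in R 4.3.3 (robust quasi-likelihood test, TMM scaling, expression filter at a minimum count of 10 and total of 15), and Benjamini-Hochberg adjustment was applied over all tested genes of a comparison, with a call at an adjusted p under 0.05. IL-13 comparisons used the 8 libraries of a day, and day comparisons and the difference between days all 16. CPM are on the TMM-scaled sizes of all 16 libraries, and SE is the absolute log2 fold change over the root of the F statistic. The script was tested on simulated data. Alternatives were DESeq2 1.42.0, other scalings, no filter, length and GC offsets, a replicate block, the nuclear RNA index (mean log2 CPM, prior count 2) as a covariate, and leaving out libraries. Counting intervals are exact 95% binomial intervals from scipy 1.17.1. No 2 libraries of a group agreed within sampling noise (lowest chi-square per degree of freedom 3.87). Called receptors with an absolute log2 fold change of at least 0.5 at day 0, those called at day 6 or for the difference between the days, and the 12 called ones with the largest day change in untreated cells are named with values per library. Exceptions are Itga10, Itgae and Cdh24 at day 0, Cdh23, Dchs2, Itga8 and Itgb8 at day 6, and Cdh3 in IL-13 cells at day 6. For these, means, upper bounds, summed counts or fold changes are given. The members and lists were chosen with earlier results of these data known. One result that the naming rule took is not reported here.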

Additional observations from a re-analysis of the deposited data

Results flagged for a closer look

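The IL-13 effect differed between day 6 and day 0 by a test of the difference itself for 8 receptors, with log2 differences of 1.53 for Fat4, 1.01 for Itga3, 0.728 for Fat1, 0.589 for Itgav, -0.78 for Itgb5, -1.10 for Cdh24, -1.24 for Itgb3 and -2.02 for Itga6.

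In 6 of 89 groups of 4 libraries with a mean of at least 1 CPM, 1 library lay far from the other 3 by Dixon's criterion, where chance marks about 1 in 20. Fat4 had 1.68 CPM in untreated day 6 library 4 against 3.27 to 3.43 CPM in the others, and Cdh24 had 3.42 CPM in IL-13 day 0 library 1 against 4.33 to 4.43 CPM. The other 4 were high values with small gaps: Cdh2 at 60.8 CPM in untreated day 0 library 3 against 56.0 to 56.4 CPM, Itga11 at 36.6 CPM in IL-13 day 0 library 4 against 33.1 to 33.7 CPM, Itga6 at 46.9 CPM in IL-13 day 0 library 1 against 44.3 to 44.6 CPM, and Itga8 at 4.05 CPM in untreated day 0 library 1 against 3.27 to 3.40 CPM. None of the calls named for these 6 receptors was lost without the library concerned.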

How the results depend on the processing

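No log2 fold change of a receptor called in the main run changed sign under any alternative run. The number of receptors called with IL-13 at day 0 (18) ran between 12 with the index of nuclear RNA as a model term and 21 with scaling by total count or with length and GC offsets, and 18 to 20 when 1 library was left out. Calls gained at day 0 were Dchs1, Itga1 and Itgb1, all lower, with total count scaling. With the offsets they were Itga1, Itga9 and Itgb3bp, all higher. A replicate block gained Dchs1 and Itga7, and RLE size factors gained Itga7. Leaving out libraries gained Dchs1, Itga7, Itga10, Itgb3bp or Cdh18 in some runs. Over all tested genes the 5881 calls at day 0 became 890 with the index of nuclear RNA, 6205 with total count scaling and 5637 with the offsets. Scaling by total count shifted the all-gene median at day 0 to -0.13 on the log2 scale, against -0.01, with 1682 genes called higher and 4523 lower in place of 2912 and 2969, and at day 6 with 53 higher and 1032 lower in place of 273 and 536. The 3 receptor calls at day 6 became 5 with a replicate block, 7 with length and GC offsets and 9 with both. They became 0 with the nuclear RNA covariate, 0 without the 2 untreated libraries richest in nuclear RNA, and 0 to 4 when 1 library was left out. Over all tested genes the 809 calls at day 6 became 2812 with the block, 1715 with the offsets and 3169 with both. They became 0 with the covariate and 2 without those 2 untreated libraries. The cause was not tested. The receptor calls gained at day 6 were Itgad and Itgb5 with the block, Fat1, Itga6, Itgb1 and Itgb5 with the offsets, and all of these with Itgb3bp with both, each higher in IL-13 cells. The replicate block adds terms for replicate numbers, and the check used did not settle whether these numbers pair the libraries. Same-numbered libraries correlated at -0.116 to 0.321 at day 0 and 0.038 to 0.318 at day 6, with 3 of 4 over 0.1 at each day. Differently numbered ones correlated at -0.258 to 0.166 at day 0, with 2 of 12 over 0.1. At day 6 they correlated at -0.346 to 0.386, with 3 of 12 over 0.1. With the block 20 receptors were called at day 0, 25 and 27 over differentiation in IL-13 and untreated cells, and 9 for the difference between the days. Over all tested genes the block gave 6518 calls at day 0, 10880 and 10871 over differentiation in IL-13 and untreated cells, and 1608 for the difference. Without it these were 5881, 10637, 10590 and 1061. In the day comparisons the calls ran between 25 and 29 in either treatment, and for the difference between the days between 7 and 10. Depth limits receptors near or under 1 CPM, such as Itgb8, Cdh23, Cdh26, Itga10 and Dchs2 at day 6, and protein motifs were not described.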
